A study of Mus musculus with 6 samples.

Results

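The 40 genes described here encode the enzymes of glycolysis, the transporters that bring glucose in and lactate out, the oxygen sensing machinery and a set of targets of the hypoxia-inducible factors (Hif). They were chosen by symbol for their known roles. The rule holds no measured value, but earlier results of these data were known when the genes were chosen. All 40 were found among the 47937 genes of the deposited table. They were measured in haematopoietic stem cells (HSCs), the marrow cells that renew themselves and give rise to all blood lineages. The cells came from 8-week-old wild-type male C57BL/6 mice, with no treatment given in the labels. Marrow of pooled femora and tibia was depleted of lineage-positive cells and sorted for Kit and Sca-1, absence of CD34, CD48 and Flt3, and presence of Slam1. Staining for the surface receptor CD93 then separated CD93+ HSCs (CD93pos, 3 libraries) from CD93- HSCs (CD93neg, 3 libraries). The labels call the libraries biological replicates without saying which animals gave them, so p-values measure only the spread between these libraries.

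Glycolysis splits glucose to pyruvate, which is reduced to lactate or enters the mitochondria. When oxygen is plentiful, prolyl hydroxylases of the Egln family mark Hif alpha proteins for destruction by the ubiquitin ligase of which Vhl is the recognition subunit. When oxygen is scarce the alpha subunit persists, pairs with Arnt, binds hypoxia response elements in DNA and raises many genes of glycolysis. Much of this control acts on the Hif protein and not on its transcript. Long-term HSCs in the marrow are known for a low-oxygen surrounding and for a reliance on glycolysis.

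Reads assigned to genes numbered 5794528 to 9509304 in the CD93pos libraries and 2832653 to 4614396 in the CD93neg libraries. CD93neg replicate 1 stood apart from the other libraries. It had no read for 71.0% of the 11805 genes tested (those whose mean normalized count reached 10), against 2.10% to 26.4% in the others. Cd93, the gene of the sorted receptor, had 906, 1001 and 550 reads in the CD93pos and 0, 419 and 38 in the CD93neg libraries. Normalized, CD93neg replicate 2 lay within the CD93pos range, and the names CD93pos and CD93neg are used here as the labels give them. Of the positive markers of the gate, Kit was read in all libraries, and Ly6a (Sca-1) and Slamf1 in all but CD93neg replicate 1. Genes of proteins the gate selected against were read too. Cd34 had 1603 to 3216 reads in CD93pos against 1715, 0 and 767 in CD93neg, Cd48 had 371 to 640 against 0, 146 and 67, and Flt3 had 236, 0 and 195 against 0, 172 and 13. Against the label of male mice, Xist, transcribed from the inactive X chromosome of females, had 0, 2419 and 1143 reads in CD93neg and 0, 0 and 12 in CD93pos. Ddx3y, a Y-linked gene, had 855, 328 and 243 reads in the CD93pos and none in the CD93neg libraries. Markers of other cell types also followed the libraries. The 16 neutrophil markers summed to 0, 14429 and 9702 reads per 1000000 assigned reads (CPM) in CD93neg and 90.3 to 354 in CD93pos. The 12 B lineage markers summed to 0.706, 11211 and 34023 CPM in CD93neg and 76.3 to 102 in CD93pos. Ly6g of neutrophils and Cd79a and Ms4a1 of B cells had no read in CD93pos or in CD93neg replicate 1. Others of these lists were read there. Of the 16 neutrophil markers, 14, 3 and 9 were read in the CD93pos and 0, 15 and 14 in the CD93neg libraries. Of the 12 B lineage markers, 5, 4 and 5 were read in the CD93pos and 2, 9 and 10 in the CD93neg libraries. The 11 mast cell and basophil markers summed to 96.6, 1081 and 711 CPM in CD93pos and 0, 27.5 and 0.666 in CD93neg, and 4 of them (Gzmb, Mcpt4, Cma1 and Tpsb2) had no read in any library. The 24 G2 and mitosis genes summed to 3873 to 4265 CPM in CD93pos and to 3087, 416 and 691 in CD93neg. These differences largely ran along the fractions, so their part in the values that follow cannot be told apart from that of CD93. It was not tested. In bulk samples, fewer cells of a type and less RNA per cell cannot be told apart.

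The 14 genes of the glycolytic steps themselves took up overlapping parts of the reads in the fractions, while 4 low-level genes, Car9, Aldoc, Egln3 and Ankrd37, were read in every CD93pos library but had no read in CD93neg. Of the 40 genes, 38 reached the mean of 10 for testing, and Epas1 and Vegfa did not. limma, a linear model on log2(normalized count + 1) with Benjamini-Hochberg adjustment over all 11805 genes, called 0 of the 38. It also called 0 of all genes, a background of 0.0%. At an unadjusted p under 0.05 it had 8 of the 38, all higher in CD93pos, beside 11.8% of all tested genes higher and 0.381% lower. edgeR's quasi-likelihood test on the recovered reads also called 0 of the 38 and 0 of all genes. At an unadjusted p under 0.05 it had 5 of the 38, beside 1067 higher and 178 lower of the 11805 genes. DESeq2 on those reads called 4 of 37, Car9, Aldoc, Egln3 and Pfkfb3, each higher in CD93pos, against 707 genes or 6.07% of all genes with an adjusted p. The authors' deposited table, also from DESeq2, calls the same 4, against 5.97% of the 11813 genes with an adjusted p in it (5.58% higher in CD93pos). The limma count was 4 of 38 without CD93pos replicate 2 (background 6.56%), 9 of 38 without CD93neg replicate 3 (15.9%) and 0 without CD93neg replicate 1 (0.00847%). The 4 were Car9, Aldoc, Egln3 and Ankrd37, and the 9 were Car9, Aldoc, Egln3, Pfkfb3, Vhl, Arnt, Pfkl, Slc16a1 and Slc16a3. The DESeq2 count was 0 without CD93pos replicate 1, 2 or 3, where the background was 3.3%, 2.07% and 1.99%. It was 7 without CD93neg replicate 1 (9.9%), with Hk2 and Ddit4 lower in CD93pos and 5 genes higher. It was 4 without CD93neg replicate 2 (8.8%) and 10 without CD93neg replicate 3 (18.6%).

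Directions of single genes depended on CD93neg replicate 1, in which 28 of the 40 genes had no read and only 8 had more than 10 reads. With all libraries, 32 of the 38 had a positive log2 fold change, near the 79.9% of all tested genes, and their median was 2.59 beside 2.36 for all. Without CD93neg replicate 1, 20 of the 38 were positive, beside 60.1% of all tested genes, with medians of 0.15 and 0.43. Quantile normalization also moved the balance: 23 of the 38 were positive, with medians of 0.51 for them and 0.02 for all genes. At an unadjusted p under 0.05 it gave 689 genes higher and 916 lower, where the deposited scaling gave 1391 and 45. For 10 of the 38 the CD93pos normalized counts lay wholly above those of CD93neg, a condition that 18.3% of all tested genes met. These were Car9, Aldoc, Egln3, Pfkfb3, Ankrd37, Vhl, Slc16a1, Pfkm, Ldha and Bnip3l. For Aldoa they lay wholly below, as in 1.92% of all genes.

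**Figure D1:**
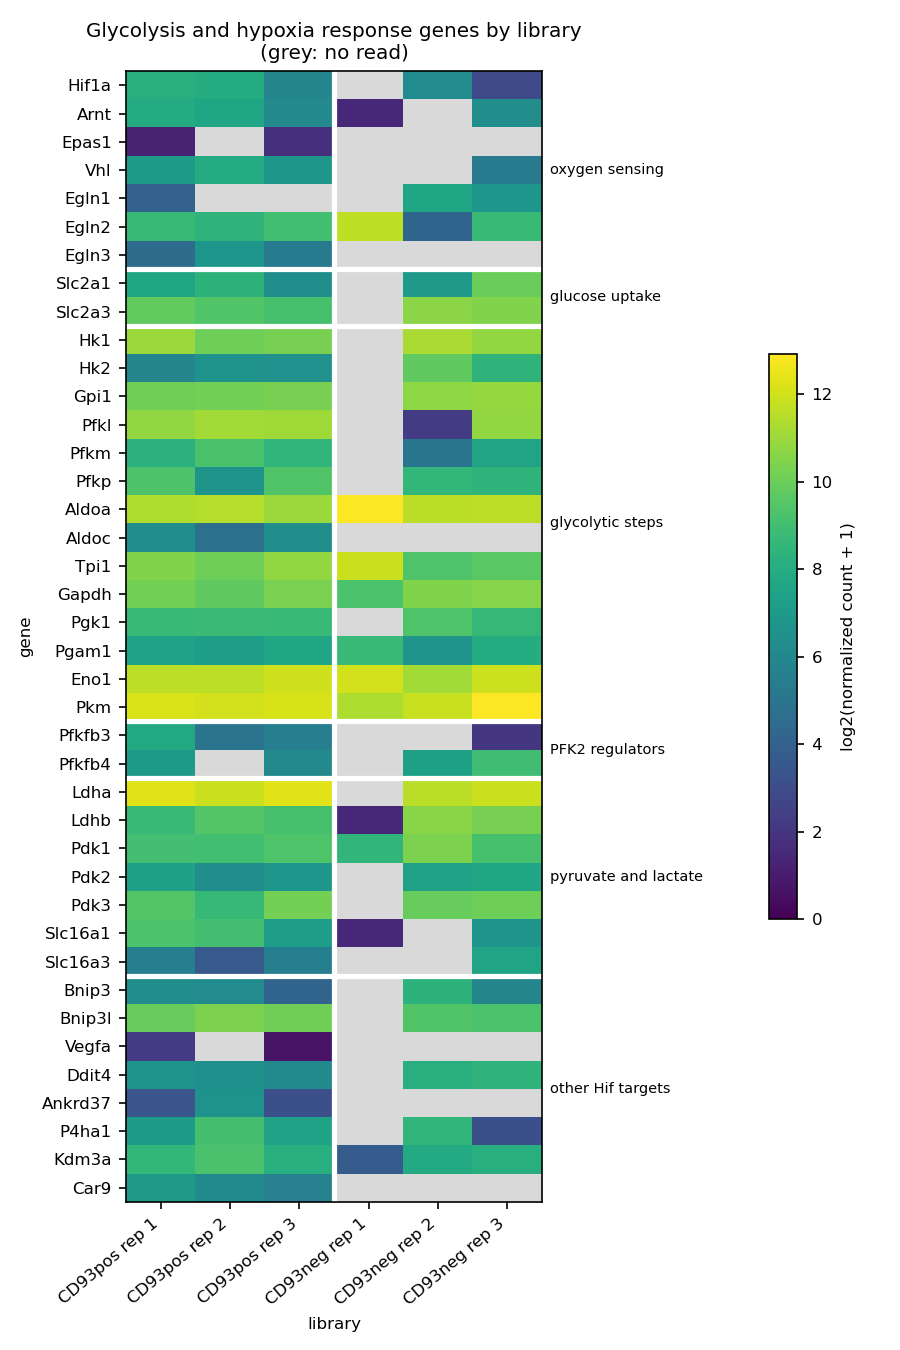
Heat map of log2(normalized count + 1) for the 40 genes (rows, grouped by role) in the 6 libraries (columns), with grey for no read. CD93neg replicate 1 is grey for 28 genes, and Egln3, Aldoc, Ankrd37 and Car9 are grey in all CD93neg libraries.

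**Figure D2:**
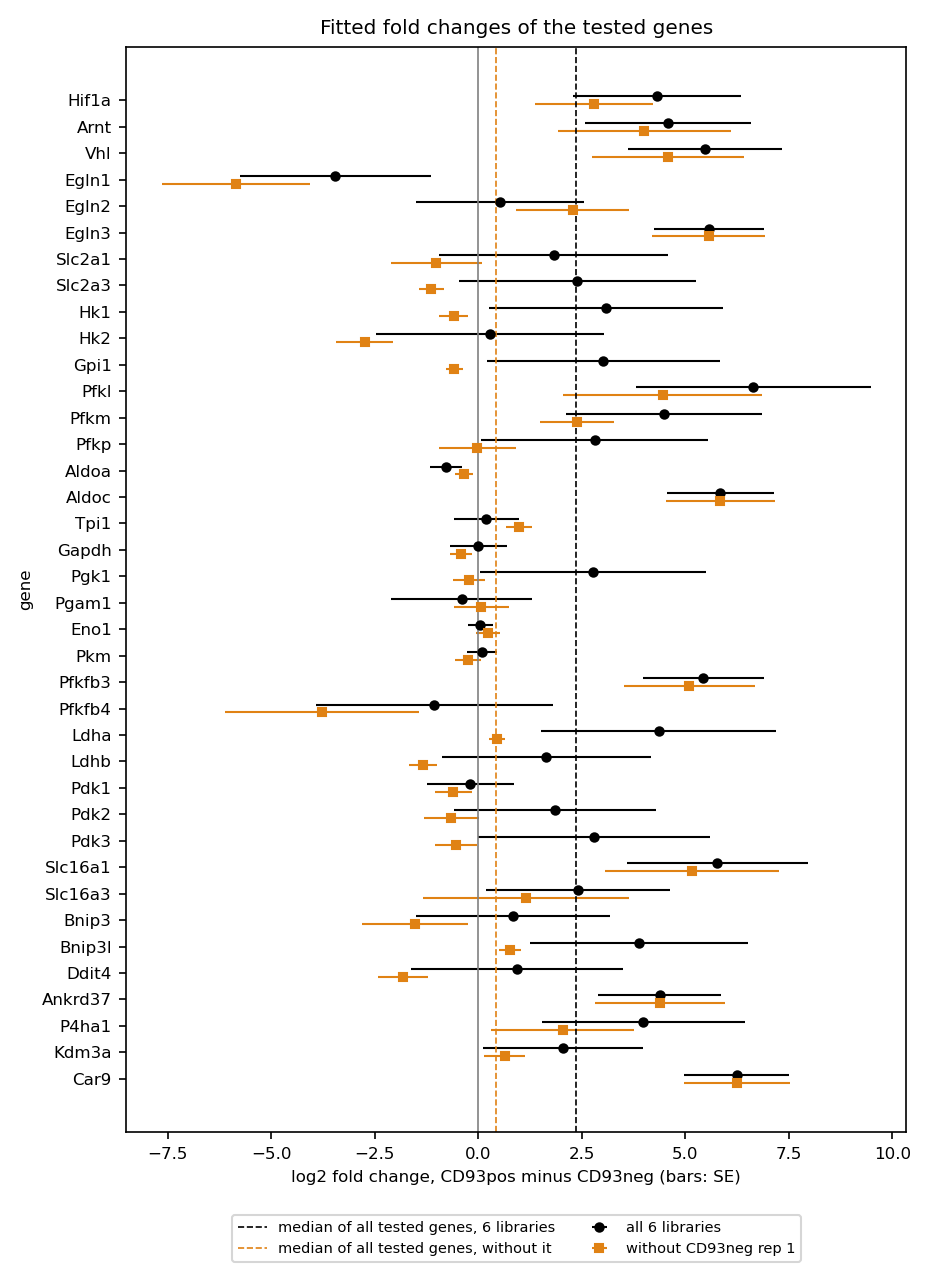
Log2 fold change (horizontal axis, CD93pos minus CD93neg) with its SE for the 38 tested genes, with all 6 libraries (black circles) and without CD93neg replicate 1 (orange squares). The dashed lines mark the medians of all tested genes, 2.36 and 0.43. The values of Car9, Aldoc and Egln3 are about the same in both fits, while those of Ldha, Hk1 and Gpi1 move toward or below 0.

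Among the oxygen sensing genes, the Hif alpha and Arnt transcripts had larger means in CD93pos, but limma called none of the 6 genes tested. Hif1a, the alpha subunit found in most cells, had normalized counts of 284, 256 and 57.8 in CD93pos and 0, 75.2 and 6.25 in CD93neg. The groups overlapped, since CD93neg replicate 2 lay above CD93pos replicate 3. The log2 fold change was 4.31 ± 2.03 (SE, adjusted p = 0.442 by limma), and 2.79 without CD93neg replicate 1. Arnt, the partner of both alpha subunits, had 249, 189 and 67.1 in CD93pos and 1.82, 0 and 82.8 in CD93neg. Only CD93neg replicate 3 reached the CD93pos range, with a log2 fold change of 4.58 ± 2.01 (SE, adjusted p = 0.417). Epas1, the second alpha subunit and a gene of endothelium, had 3, 0 and 4 reads in the CD93pos and none in the CD93neg libraries, so no difference was detectable at this depth. Vhl had 129, 247 and 114 in CD93pos and 0, 0 and 40.6 in CD93neg, without overlap. Its log2 fold change was 5.48 ± 1.86 (SE, adjusted p = 0.242).

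The 3 Egln hydroxylases had 3 different patterns across the libraries. Egln1, the main hydroxylase in most tissues, had 34, 0 and 0 reads in the CD93pos and 0, 205 and 70 in the CD93neg libraries. CD93neg replicates 2 and 3, which had the Egln1 reads, also held neutrophil and B lineage reads. CD93neg replicate 1 had no read for most of the genes described here, so this match says little. The log2 fold change of Egln1 was -3.45 ± 2.31 (SE, adjusted p = 0.565). Without CD93neg replicate 1 it was -5.85 ± 1.80 (SE, adjusted p = 0.195 by limma). Egln2 had the largest mean of the 3, with normalized counts of 423, 333 and 522 in CD93pos and 3306, 17.1 and 414 in CD93neg. Its CD93neg values spanned both ends of the range, and its log2 fold change was 0.53 ± 2.04 (SE, adjusted p = 0.893), turning negative under edgeR and DESeq2 (-1.05 and -1.55). Egln3, itself a target of Hif, had 49, 139 and 65 reads in the CD93pos and none in the CD93neg libraries. Summed over the group, this was at least 39.2-fold higher in CD93pos when the unread CD93neg group was set to 3 reads in all. The bound was 23.8-fold without CD93pos replicate 2 and 21.9-fold without CD93neg replicate 2. Its log2 fold change was 5.57 ± 1.33 (SE, adjusted p = 0.0781 by limma), and the authors' deposited table gives an adjusted p of 0.02. Hydroxylase reads were thus all Egln2 in CD93neg replicate 1 (1821 of 1821) and mostly Egln1 in CD93neg replicate 2 (205 of 223).

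Car9, Aldoc, Egln3 and Ankrd37 had the pattern of presence in CD93pos and absence in CD93neg, shared by 4.6% of all tested genes. Elsewhere, 5 of 7 tested mast cell and basophil markers had it, as did 7 of 24 G2 and mitosis genes. So did 2 of 8 tested erythroid markers, and 0 of the neutrophil, B lineage, monocyte and dendritic cell, and megakaryocyte markers. Car9, Aldoc, Egln3 and Ankrd37 were singled out after their values were seen. With no CD93neg read, they reached the mean of 10 for testing through CD93pos alone, as did all genes in that 4.6%. Their p-values and fold bounds therefore describe the pattern and are not separate support for it. Car9, a membrane carbonic anhydrase that is a classical Hif target, had 275, 88 and 78 reads in CD93pos. It was at least 68.4-fold higher there (44.7-fold without CD93pos replicate 1, 38.2-fold without CD93neg replicate 2). Its log2 fold change of 6.25 (SE 1.27) was the largest among the 10 genes with no overlap, with a limma adjusted p of 0.0567. In the authors' deposited table its adjusted p is 0.00983. Aldoc, the aldolase isozyme best known from brain, had 181, 33 and 135 reads in CD93pos. The bound was 54.1-fold (30.2-fold without CD93neg replicate 2), and the log2 fold change was 5.85 ± 1.30 (SE, adjusted p = 0.0657 by limma). The authors' deposited table gives Aldoc an adjusted p of 0.0154. Ankrd37, an ankyrin repeat protein induced by hypoxia, had 21, 119 and 13 reads in CD93pos. It was at least 23.7-fold higher, but 7.11-fold without CD93pos replicate 2, which held most of its reads, and 13.3-fold without CD93neg replicate 2. Its log2 fold change was 4.38 ± 1.49 (SE, adjusted p = 0.24 by limma) and turned to -0.031 after quantile normalization. All 4 were low: as CPM per kilobase of exon (RPKM), Car9 had 7.96 ± 4.08, Ankrd37 5.32 ± 6.95, Egln3 4.79 ± 3.73 and Aldoc 4.45 ± 2.35 in CD93pos (SD, n = 3). These levels do not differ from each other beyond their spread. Exons of Ankrd37 overlap those of Lrp2bp and Ufsp2, and those of Car9 overlap Gm12454, all on the opposite strand. Whether the counting used strand is not stated, so such reads cannot be told apart. Mast cell and basophil markers summed to 96.6, 1081 and 711 CPM in the CD93pos libraries. Beside this, Car9 had 28.9, 15.2 and 10.9 CPM and Aldoc 19.0, 5.70 and 18.9. Egln3 had 5.15, 24.0 and 9.09 CPM and Ankrd37 2.21, 20.5 and 1.82. A link between the markers and these genes was not tested.

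Promoters of these 4 genes are shown with those of Ldha and Pgk1, glycolytic genes with well-studied hypoxia response elements, to let the motif be seen in context. The sequences are the 250 bases upstream of the start site in RefSeq on GRCm38.p6. Car9 is at chr4:43506776-43507025 on the plus strand, Egln3 at chr12:54203875-54204124 on the minus strand, and Aldoc at chr11:78322823-78323072 on the plus strand. Ankrd37 is at chr8:45999851-46000100 on the minus strand, Ldha at chr7:46845554-46845803 on the plus strand, and Pgk1 at chrX:106186850-106187099 on the plus strand. Capitals mark each match to ACGTG or GCGTG, the core of a hypoxia response element, on either strand. Where ACGTG lies within the palindrome CACGTG it also matches the E-box bound by other factors, and it is then counted on both strands.
Car9: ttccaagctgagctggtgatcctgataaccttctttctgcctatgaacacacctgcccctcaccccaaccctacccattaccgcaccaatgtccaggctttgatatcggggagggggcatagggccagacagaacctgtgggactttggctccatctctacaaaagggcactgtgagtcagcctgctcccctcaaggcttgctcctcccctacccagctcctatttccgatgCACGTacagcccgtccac
Egln3: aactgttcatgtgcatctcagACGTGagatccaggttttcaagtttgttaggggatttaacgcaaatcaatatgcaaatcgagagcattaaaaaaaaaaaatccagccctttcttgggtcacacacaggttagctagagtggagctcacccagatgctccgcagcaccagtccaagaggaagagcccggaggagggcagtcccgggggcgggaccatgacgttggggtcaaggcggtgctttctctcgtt
Aldoc: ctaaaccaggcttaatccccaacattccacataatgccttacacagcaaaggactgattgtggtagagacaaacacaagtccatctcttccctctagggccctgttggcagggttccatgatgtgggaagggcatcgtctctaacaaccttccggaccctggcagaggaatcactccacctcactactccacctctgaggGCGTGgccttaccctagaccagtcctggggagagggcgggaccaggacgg
Ankrd37: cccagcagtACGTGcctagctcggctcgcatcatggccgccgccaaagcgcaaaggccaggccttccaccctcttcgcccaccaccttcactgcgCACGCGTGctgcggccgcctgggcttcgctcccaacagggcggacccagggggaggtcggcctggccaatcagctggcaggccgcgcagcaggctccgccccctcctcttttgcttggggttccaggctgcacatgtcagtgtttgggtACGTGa
Ldha: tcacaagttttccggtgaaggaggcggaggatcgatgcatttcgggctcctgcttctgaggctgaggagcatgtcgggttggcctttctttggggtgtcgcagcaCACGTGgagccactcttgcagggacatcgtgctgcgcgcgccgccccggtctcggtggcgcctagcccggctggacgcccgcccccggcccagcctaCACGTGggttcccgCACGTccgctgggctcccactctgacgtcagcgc
Pgk1: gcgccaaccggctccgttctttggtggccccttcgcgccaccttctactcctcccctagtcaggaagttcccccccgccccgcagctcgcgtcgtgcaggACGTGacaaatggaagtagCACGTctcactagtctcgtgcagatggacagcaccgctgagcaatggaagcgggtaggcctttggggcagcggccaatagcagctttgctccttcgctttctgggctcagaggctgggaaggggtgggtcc

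In the printed bases Car9 has its single match 18 bases before the start site, Egln3 at 229 and Aldoc at 50 bases before it. Ankrd37 has 4 matches, and Ldha has 5, of which 4 belong to 2 copies of CACGTG. RefSeq promoters (250 bases before to 50 after the start site) were given for 37 of the 40 genes, and Bnip3l, Epas1 and Slc2a3 had none. At least 1 core lay in 43 of their 55 promoters, or 78.2%, and in 34 of the 37 genes, or 91.9%. By promoter, the share was 43.8% of all 32851 and 62.3% of those of tested genes. By gene, it was 46.7% of all and 68.2% of tested genes. The promoters held a median of 21 CG dinucleotides, against 7 in all promoters and 20 in those of tested genes, and each core contains a CG. Vhl, Gpi1 and Tpi1 were the 3 genes without a match. A match describes the letters and does not show that Hif binds there. Matches lay in genes with overlapping groups, such as Pgk1, as well as in Car9.

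**Figure D3:**
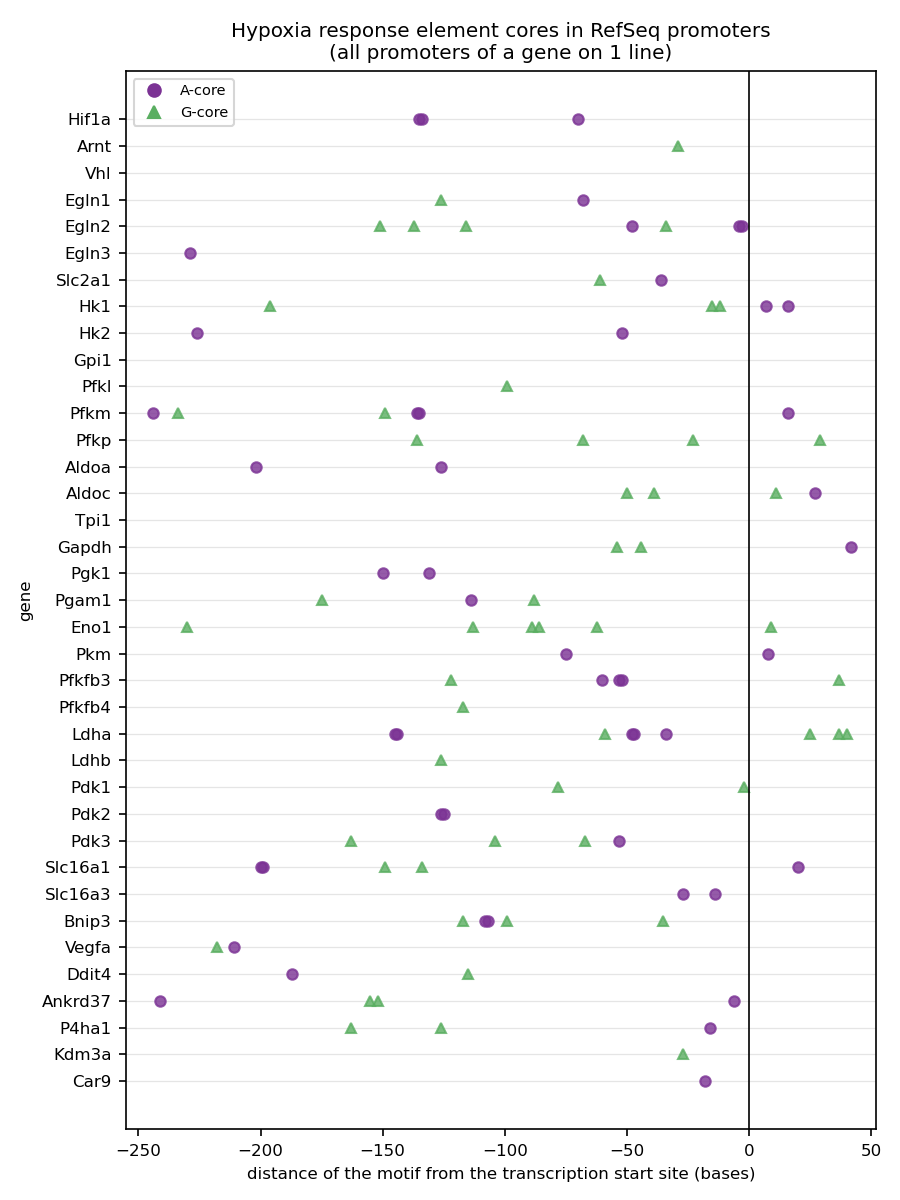
Position of hypoxia response element cores (horizontal axis, bases from the transcription start site, circles for the core starting with A, triangles for G) in the RefSeq promoters of 37 genes (rows). Matches occur in 34 genes, with none in Vhl, Gpi1 and Tpi1, and Car9 has a single match 18 bases before the start site.

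The other Hif targets summed to 412, 609 and 383 CPM in CD93pos and to 2.47, 433 and 276 in CD93neg. CD93neg replicate 1 was nearly empty, CD93neg replicate 2 lay within the CD93pos range, and the groups overlapped. The ratio of group means was 1.97, and 3.36 without CD93neg replicate 2. Bnip3l, a mitophagy receptor of red cell maturation, had the most of these reads in every library but CD93neg replicate 1. It had normalized counts of 953, 1319 and 1094 in CD93pos and 0, 689 and 619 in CD93neg, without overlap. The log2 fold change was 3.88 ± 2.63 (SE, adjusted p = 0.571 by limma) and 0.77 without CD93neg replicate 1. Bnip3, its paralogue, had 83.2, 74.5 and 16.6 in CD93pos and 0, 330 and 57.8 in CD93neg, so the highest and the lowest value both came from CD93neg. Ddit4, an inhibitor of the growth kinase complex mTORC1, had 103, 89.5 and 69.5 in CD93pos. In CD93neg it had 0, 281 and 336, so replicates 2 and 3, which also held neutrophil and B lineage reads, exceeded all CD93pos libraries. P4ha1, a collagen prolyl hydroxylase, had 131, 554 and 175 in CD93pos and 0, 368 and 7.81 in CD93neg. Kdm3a, a histone demethylase, had 381, 594 and 273 in CD93pos and 12.7, 235 and 274 in CD93neg, the last of which just exceeded the lowest CD93pos value. Vegfa, the vascular growth factor, had 8, 0 and 1 reads in the CD93pos and none in the CD93neg libraries, which is too few to compare.

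The glycolytic steps summed to 4517, 3929 and 4568 CPM in CD93pos and 3762, 3923 and 5074 in CD93neg. The highest and the lowest library were both CD93neg, and the means of 4338 ± 355 and 4253 ± 716 (SD, n = 3 each) gave a ratio of 1.02. Leaving out single libraries moved this ratio between 0.96 and 1.13. Set against the other Hif targets in the same library, glycolytic step reads were 11.0, 6.45 and 11.9 times as many in CD93pos and 1522, 9.05 and 18.4 times as many in CD93neg. The first CD93neg value rests on 7 reads of 1 Hif target, Kdm3a. Fewer genes of the steps were read in that library: 6 of the 14 genes were read, against 13 in each other CD93neg library and 14 in each CD93pos library. Aldoa, aldolase A, made up 40.1% of its glycolytic step reads, against 9.89% to 17.8% elsewhere.

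**Figure D4:**
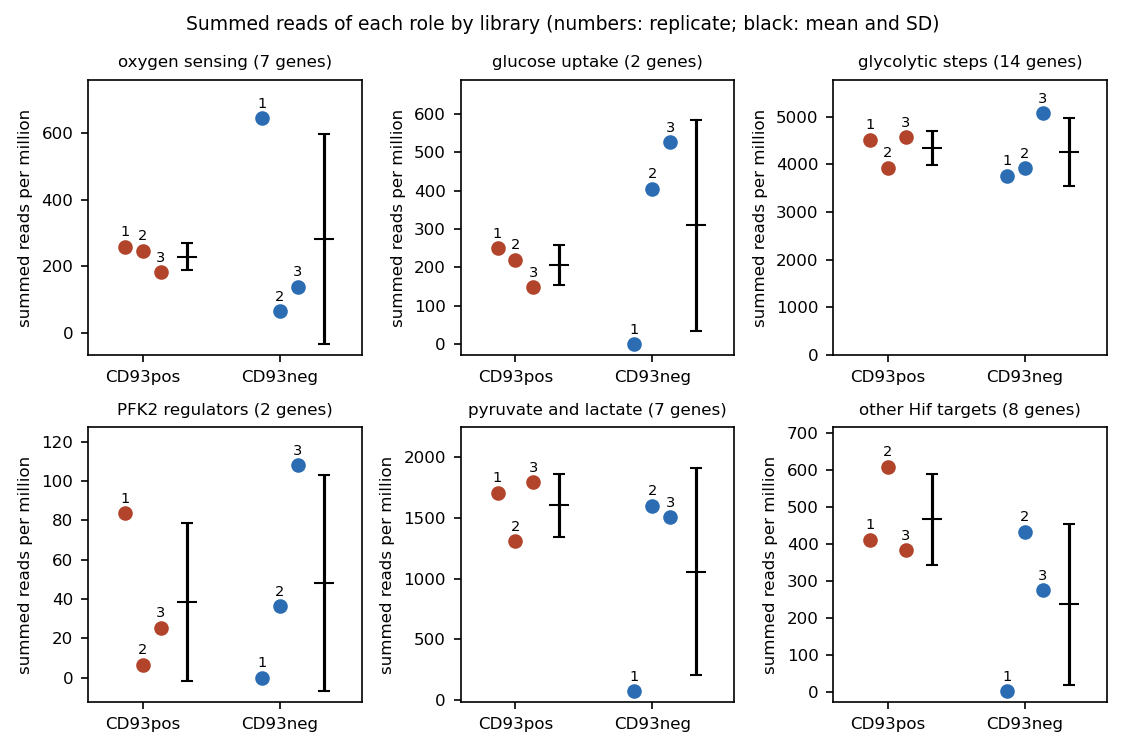
Summed CPM (vertical axes, from 0 or below) of the genes of each role in the 3 CD93pos (red) and 3 CD93neg (blue) libraries, numbered by replicate, with mean and SD in black. The glycolytic steps lie between 3762 and 5074 in all libraries. All roles other than oxygen sensing, the glycolytic steps among them, are lowest in CD93neg replicate 1.

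For the glucose transporters the balance of isozymes overlapped between the fractions, and for hexokinase it did not. Slc2a3, the high-affinity glucose transporter GLUT3, had normalized counts of 886, 684 and 564 in CD93pos and 0, 1653 and 1438 in CD93neg. CD93neg replicates 2 and 3 lay above all CD93pos libraries and CD93neg replicate 1 was empty, so the log2 fold change of 2.39 ± 2.87 (SE, adjusted p = 0.672 by limma) became -1.14 without CD93neg replicate 1. Slc2a1, the transporter GLUT1, had 203, 326 and 84.9 in CD93pos and 0, 125 and 1032 in CD93neg, where replicate 3 alone was high. Hk1, the housekeeping hexokinase, had 2037, 1059 and 1244 in CD93pos and 0, 2461 and 1786 in CD93neg. Hk2, the inducible hexokinase and a Hif target, had 57.6, 95.1 and 91.1 in CD93pos and 0, 862 and 336 in CD93neg. Hk2 was thus low in all CD93pos libraries and high in both CD93neg libraries that had glycolytic reads of this step. Hk1 made up 97.2%, 91.8% and 93.2% of Hk1 and Hk2 reads in CD93pos, with Wilson 95% intervals within 90.2% to 97.7%. In CD93neg replicates 2 and 3 it made up 74.1% (72.6% to 75.5%) and 84.2% (82.1% to 86.0%). These intervals cover counting error only. Gpi1, which makes fructose 6-phosphate, had 1130, 1196 and 1247 in CD93pos and 0, 1708 and 1847 in CD93neg.

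Phosphofructokinase, the committed step of glycolysis, is built from the Pfkl, Pfkm and Pfkp subunits. Pfkl, the liver type, had normalized counts of 1790, 2277 and 2172 in CD93pos and 0, 3.81 and 1844 in CD93neg. CD93neg replicate 3 was at the CD93pos level and the others were nearly empty, giving a log2 fold change of 6.64 ± 2.84 (SE, adjusted p = 0.402 by limma). Pfkm, the muscle type, had 320, 586 and 362 in CD93pos and 0, 31.4 and 188 in CD93neg, without overlap. Pfkp, the platelet type, had 631, 102 and 681 in CD93pos and 0, 381 and 338 in CD93neg. Per length, Pfkl was the most abundant subunit in CD93pos at 70.0 ± 7.18 RPKM, followed by Pfkm at 28.3 ± 8.67 and Pfkp at 8.02 ± 5.51 (SD, n = 3 each). The share of Pfkl among the reads of the 3 was 65.3% to 76.8% in CD93pos and 77.8% in CD93neg replicate 3, but 0.915% in CD93neg replicate 2 (4 of 437 reads), where Pfkp held most.

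The bifunctional PFK2 enzymes make and remove fructose 2,6-bisphosphate, the activator of phosphofructokinase, and the share of Pfkfb4 among their reads did not overlap between the fractions. Pfkfb3, the isozyme with the strongest kinase side, had 506, 38 and 74 reads in the CD93pos and 0, 0 and 2 in the CD93neg libraries. The groups did not overlap, and the ratio of the summed groups was 144 (exact 95% counting interval 39.6 to 1190). CD93pos replicate 1 held 506 of the 618 CD93pos reads, and without it the ratio was 45.2 (12.2 to 378). It was 80.3 without CD93neg replicate 2, and at least 68.3-fold without CD93neg replicate 3, when no CD93neg read remained and 3 reads were taken as the floor. On the log2 scale the difference was 5.44 ± 1.47 (SE, adjusted p = 0.12 by limma), with an adjusted p of 0.0418 in the authors' deposited table. Pfkfb4, a Hif target, had normalized counts of 132, 0 and 66.5 in CD93pos and 0, 160 and 503 in CD93neg. The fitted log2 fold change was -1.06 ± 2.87 (SE, adjusted p = 0.848), and it changed sign to 1.13 without CD93pos replicate 2 and to 0.71 without CD93neg replicate 3. Pfkfb4 reads made up 36.3%, 0% and 59.3% of the pair in CD93pos, the middle value from 38 reads with an upper limit of 9.18%. In CD93neg replicates 2 and 3 they made up 100% and 99.4%.

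From aldolase to pyruvate kinase genes other than the aldolases had overlapping values. Pkm, pyruvate kinase of non-liver tissues and the gene with the most reads among the steps, had normalized counts of 4614, 4162 and 4482 in CD93pos. In CD93neg it had 2574, 3660 and 7491, on both sides of the CD93pos values, and the log2 fold change was 0.10 ± 0.36 (SE, adjusted p = 0.889 by limma). Eno1, enolase 1, had 3131, 3161 and 4069 in CD93pos and 4248, 2211 and 3887 in CD93neg. Gapdh, which gains the NADH of glycolysis, had 1188, 878 and 1270 in CD93pos and 617, 1430 and 1504 in CD93neg. Aldoa was the member whose groups did not overlap in the other direction. It had 2621, 2826 and 1988 in CD93pos and 7752, 3060 and 3170 in CD93neg, and its limma adjusted p was 0.457. Tpi1, triose phosphate isomerase, had 1438, 1079 and 1786 in CD93pos and 3721, 647 and 777 in CD93neg. Pgk1, phosphoglycerate kinase, had close CD93pos values, 423, 446 and 438, beside 0, 664 and 391 in CD93neg. Pgam1, phosphoglycerate mutase, had 171, 147 and 195 in CD93pos and 432, 103 and 256 in CD93neg. Gapdh, Pgk1, Eno1, Tpi1, Pgam1, Aldoa, Pkm and Ldha belong to families with close copies or pseudogenes to which reads may also align, which makes their values uncertain.

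Lactate dehydrogenase had a balance of isozymes that did not overlap between the fractions in the 5 libraries where it could be measured. Ldha, the subunit favouring lactate formation and a Hif target, had normalized counts of 4928, 3778 and 5200 in CD93pos and 0, 3025 and 3729 in CD93neg. Ldha was the most abundant member per length in CD93pos, at 316 ± 58.8 RPKM, ahead of Pkm at 199 ± 16.0 and Aldoa at 191 ± 31.3 (SD, n = 3 each), the last 2 being within their spread of each other. Its groups did not overlap, but the difference from CD93neg replicate 3 was small. The log2 fold change was 4.36 ± 2.83 (SE, adjusted p = 0.554 by limma) and 0.45 (SE 0.20) without CD93neg replicate 1. Ldhb, the subunit favouring lactate use, had 417, 696 and 565 in CD93pos and 1.82, 1563 and 1222 in CD93neg, so CD93neg replicates 2 and 3 lay above all CD93pos libraries. Ldha made up 92.2%, 84.4% and 90.2% of the reads of the pair in CD93pos. In CD93neg replicates 2 and 3 it made up 65.9% (64.6% to 67.3%) and 75.3% (73.8% to 76.8%), and CD93neg replicate 1 had 1 read of the pair. These shares count reads and do not correct for exon length. Per length, Ldhb had 227 and Ldha 208 RPKM in CD93neg replicate 2, and 166 and 240 in replicate 3. The mean share of Ldha reads was 88.9% ± 4.02 in 3 CD93pos libraries and 70.6% ± 6.63 in 2 CD93neg libraries (SD), a difference of 18.3 percentage points. A two-sided exact permutation test gave p = 0.2, which is the minimum for 3 against 2 libraries, and 0.36 after adjustment over 9 isozyme shares. The Hk1, Bnip3l and Pfkfb4 shares gave the same p-values, with differences of 14.9, 15.5 and -67.8 points, and none of the 9 passed. For Ldha and Hk1, shares in CD93neg could be measured only in replicates 2 and 3. Both also held neutrophil and B lineage reads, so that match was fixed by where the shares could be measured.

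**Figure D5:**
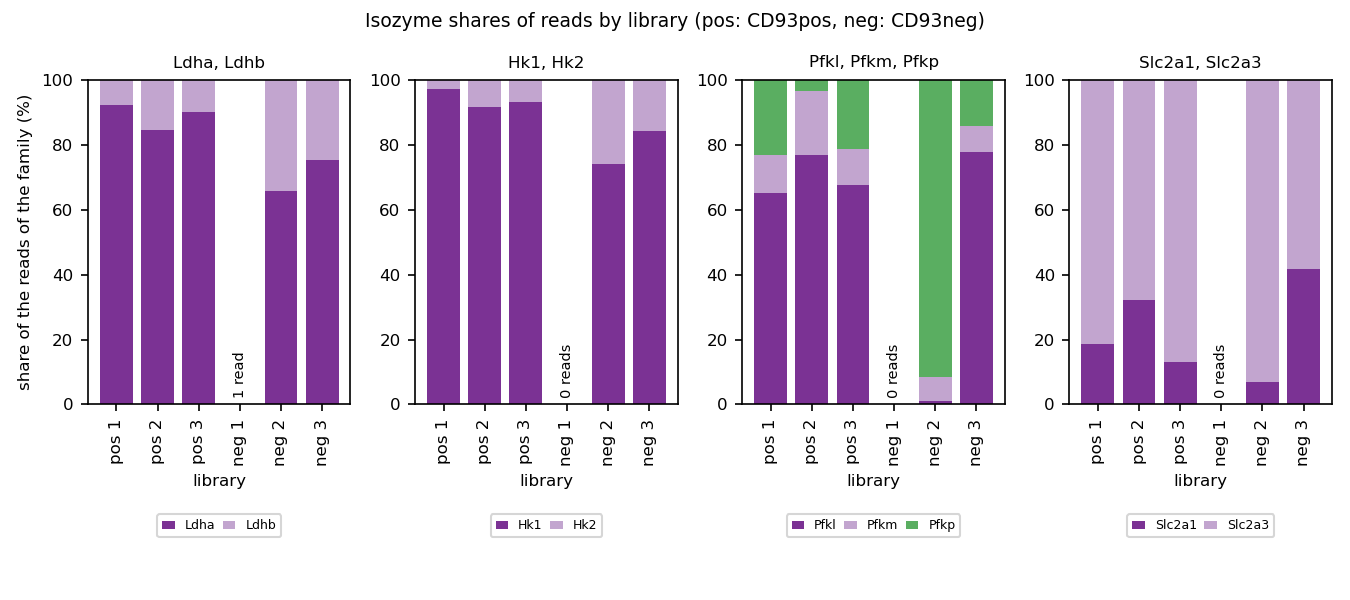
Share of the reads of each isozyme family (vertical axis, %) by library for lactate dehydrogenase, hexokinase, phosphofructokinase and the glucose transporters, left blank where a family had under 20 reads. Ldha lies between 84.4% and 92.2% in CD93pos and at 65.9% and 75.3% in CD93neg replicates 2 and 3, and Pfkl is nearly absent from CD93neg replicate 2.

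Pyruvate dehydrogenase kinases keep pyruvate out of the mitochondria by inactivating its dehydrogenase, and their transcripts overlapped between the fractions. Pdk1, the Hif target among them, had normalized counts of 542, 507 and 654 in CD93pos and 363, 1303 and 566 in CD93neg. Pdk3 had 703, 401 and 1185 in CD93pos and 0, 956 and 1060 in CD93neg. Pdk2 had 170, 81.6 and 111 in CD93pos and 0, 174 and 191 in CD93neg. Pdk1 was the only one of the 3 with reads in CD93neg replicate 1. The monocarboxylate transporters carry lactate across the membrane. Slc16a1 (MCT1) had 612, 528 and 145 in CD93pos and 1.82, 0 and 102 in CD93neg, without overlap. The fitted log2 fold change was 5.77 ± 2.19 (SE, adjusted p = 0.32 by limma). It was 5.16 without CD93neg replicate 1, and 7.75 (adjusted p = 0.0196 by limma) without CD93neg replicate 3, which held 65 of the 66 CD93neg reads. Slc16a3 (MCT4), the exporter of glycolytic cells and a Hif target, had 104, 14 and 76 reads in the CD93pos and 0, 0 and 120 in the CD93neg libraries.

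Among other genes of these pathways limma made no call. Of 45 further glycolysis and pyruvate genes, 27 were tested, and limma called 0 in either direction (1 at an unadjusted p under 0.05), with 24 positive and 3 negative fold changes and a median of 2.77. Without CD93neg replicate 1, 18 of the 27 were positive, with a median of 0.53. Those with the smallest p were Slc2a8, a glucose transporter, Pdp1, a pyruvate dehydrogenase phosphatase, Pdhx, a subunit of that dehydrogenase, and Bpgm, which makes 2,3-bisphosphoglycerate. Slc2a8 had 113, 1 and 68 reads in the CD93pos and none in the CD93neg libraries (limma adjusted p = 0.399). Pdp1 had 564, 1043 and 612 reads against 0, 175 and 9. Pdhx had 638, 650 and 504 against 0, 463 and 0, and Bpgm 809, 466 and 759 against 0, 0 and 356. Of 49 further hypoxia response genes, 36 were tested and limma called 0 (4 at an unadjusted p under 0.05), with 32 positive and 4 negative fold changes and a median of 3.20. Without CD93neg replicate 1, 24 of the 36 were positive, with a median of 1.07. Plod2, a lysyl hydroxylase of collagen and a Hif target, had 149, 118 and 188 reads in the CD93pos and none in the CD93neg libraries, the same pattern as Car9. Like Slc2a8, it reached the mean for testing through CD93pos alone. On the log2 scale the difference was 6.51 ± 1.25 (SE, adjusted p = 0.0558 by limma), and the authors' deposited table calls it with an adjusted p of 0.00781. Cul2, the scaffold of the Vhl ubiquitin ligase, had 1135, 1333 and 1041 reads in the CD93pos and 0, 0 and 64 in the CD93neg libraries (limma adjusted p = 0.193). Ndrg1 had 1534, 451 and 629 reads against 0, 0 and 206. Tek, the angiopoietin receptor, had 1163, 630 and 156 against 0, 7 and 62. Of all tested genes, 79.9% were positive with a median of 2.36, and 60.1% with a median of 0.43 without CD93neg replicate 1. The authors' deposited table calls 0 of 30 genes of the first list and 1 of 34 of the second, Plod2.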

How the data were processed

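Per the submitters' processing notes, the tools were STAR, DESeq2 1.26 and, of Subread 1.5.0-p1, featureCounts, and 2 builds are named, GRCm38 and mm10. The strand setting and annotation release of the counting are not stated there. Per the labels' protocols, reads were paired, of 50 bp. The authors deposited a signal table in which each library's gene counts are scaled by its size factor. They also deposited a table with the mean signal, log2 fold change and its SE, a Wald score, and p-values of each gene. All values above 0 (100%) are whole multiples of 1 read within 0.001, so reads were recovered.

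limma 3.58.1 (lmFit, eBayes with a trend, two-sided) was run on genes whose mean normalized count reached 10, using log2(normalized count + 1), with Benjamini-Hochberg adjustment and a threshold of 0.05. On this scale a fold change understates the change of low genes that are unread in a whole group. For genes unread in some libraries of a group it can exceed that of DESeq2, as for Arnt (4.58 against 2.58), Vhl (5.48 against 3.60) and Hif1a (4.31 against 2.87). edgeR 4.0.16 and DESeq2 1.42.0 in R 4.3.3 were run on the recovered reads. CPM are reads per 1000000 assigned reads, and RPKM also divide by the exon length of GENCODE M21, in which 47224 of the 47937 IDs were found. No per-sample column was left unused. Floors (3 reads) and intervals (95%) cover counting error only. Amplified reads are not independent molecules. Tested on simulated counts for the 11805 genes, limma recovered 100% of genes with a simulated log2 fold of 3 or 6 at a coefficient of variation of 0.3, and 0% at 1.64, the common coefficient edgeR estimated. Python 3.11.15, pandas 2.3.3, scipy 1.17.1 and matplotlib 3.10.9 served the other steps.

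The genes and lists were chosen with earlier results of these data known. All 40 members are named. Fold change, SE and adjusted p are given for the 10 tested members with the smallest p and for the member with the highest mean in each of 6 roles, and a few others were added after their values were seen. In 2 lists of other pathway genes the 4 with the smallest p are named. Marker lists of neutrophils, B cells, mast cells and basophils, erythroid, monocyte and dendritic cells and megakaryocytes were summed. The erythroid, monocyte and dendritic, and megakaryocyte lists had means of 3973, 64.1 and 2059 CPM in CD93pos and 3871, 327 and 1394 in CD93neg. Alternatives covered pseudocount, filter, scaling, test, replicate block and left-out libraries. DESeq2 and the Pfkfb3 ratio with left-out libraries were added after the data were seen.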

Additional observations from a re-analysis of the deposited data

How the results depend on the processing

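limma called 0 genes and 0 of the 38 tested members with all libraries. Over all genes it called 206 with a pseudocount of 0.5, and 24 with the replicate block, neither with a member among them. DESeq2 called 707 genes and 4 members. Over fits that left out 1 library, by limma or DESeq2, the count of genes ran from 0 to 2419 and that of members from 0 to 10. With limma alone the highest counts were 1880 genes and 9 members, both without CD93neg replicate 3. limma without CD93pos replicate 2 called 774 genes, and 1 gene without CD93neg replicate 1. The cause was not tested. Same-numbered libraries of the 2 groups had correlations of their deviations of 0.04, 0.02 and 0.06, each the best match of its library but below the 0.1 needed to treat the numbers as pairs.

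Of the 16 members chosen for a full fit by the rule for named genes, 5 changed direction. Ankrd37 had -0.031 after quantile normalization. Slc2a3 had -0.45 with edgeR, -0.53 with DESeq2 and -0.61 with library quality weights, and -1.14 to 4.21 when 1 library was left out. Pkm had -0.050 with DESeq2 and -0.14 with quality weights, and -0.34 to 0.52 with libraries left out. Egln2 had -0.085 after quantile normalization, -1.05 with edgeR and -1.55 with DESeq2, and -2.13 to 2.28 with libraries left out. Pfkfb4 ranged from -3.78 to 1.13 with libraries left out. The ratio of summed glycolytic steps ranged from 0.96 to 1.13 and that of other Hif targets from 1.32 to 3.36 with libraries left out. Depth limits what can be said of genes unread in CD93neg. CD93neg replicates 1 and 3 had similar numbers of reads, 2832653 and 3003095, but no read for 71.0% and 16.0% of the tested genes. The reason was not tested, and the floors count the reads of CD93neg replicate 1 like those of the other libraries.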

Other observations

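Genes that draw glucose carbon away from lactate were read in both fractions. Tkt, transketolase of the pentose phosphate pathway, had normalized counts of 2473, 2022 and 2546 in CD93pos and 3500, 2042 and 2277 in CD93neg, with overlap, and a log2 fold change of -0.12 ± 0.34 (SE, adjusted p = 0.859 by limma). G6pdx, the first enzyme of that pathway, had 978, 374 and 502 reads in the CD93pos and 1847, 0 and 302 in the CD93neg libraries, so CD93neg held both the highest and the lowest count. Taldo1, transaldolase, had 3147, 1629 and 2497 reads in the CD93pos and 0, 1172 and 1521 in the CD93neg libraries. Of the pyruvate dehydrogenase complex, Pdha1 had 1737, 1051 and 1714 reads in the CD93pos and 0, 266 and 251 in the CD93neg libraries (limma adjusted p = 0.524), while Dld, the subunit shared with other complexes, had 1408, 1254 and 1817 against 1051, 649 and 174. Meis1, a stem cell transcription factor known to act upstream of Hif1a, had normalized counts of 3080, 3789 and 2889 in CD93pos and 12958, 3368 and 4118 in CD93neg, with a log2 fold change of -0.80 ± 0.46 (SE, adjusted p = 0.507 by limma). These genes were chosen after their values were seen.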
